A study of Mus musculus with 8 samples.

Results

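Transcripts of 10 circadian clock genes (Clock, Arntl, Per1, Per2, Per3, Cry1, Cry2, Nr1d1, Nr1d2 and Dbp) were compared between saline and lipopolysaccharide (LPS) in CD11b+ cells sorted from the brains of young mice. A probe was counted as belonging to one of these genes when it was no control spot and carried that gene's name in the scanner files, which gave 26 of 56599 probes. Of these, 25 passed the filter on dim probes (a signal well above background required on 4 or more of the 8 arrays), and every gene kept at least 1 probe, so that the 10 genes were tested among 22509. The probe left out was 1 of 4 Clock probes, which was well above background on 0 saline arrays and 1 LPS array.

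The animals were male C57BL/6N mice, 7 days old per the labels, and no genetic change is named for any group. LPS, the endotoxin shed from the cell wall of Gram-negative bacteria, or saline had been given 24 h earlier. Each of 8 tubes pooled the brains of 2 mice given the same treatment, and CD11b+ cells were taken from each tube with magnetic beads, which made 4 pools per treatment and 1 array per pool. The dose and route of LPS and the time of day at which cells were collected are not given in the sources used here. Itgam, which encodes CD11b, and all 10 microglial markers examined were well above background on all 8 arrays, and Itgam was 1.58-fold higher after LPS (limma adjusted p = 0.00176).

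The clock is a transcriptional feedback loop present in most cells of the body. CLOCK and BMAL1 (the product of Arntl) bind E-boxes and switch on the Per and Cry genes, whose proteins return to the nucleus and repress CLOCK and BMAL1, so that Per and Cry transcripts rise and fall each day. A second loop runs through the nuclear receptors REV-ERBα and REV-ERBβ (Nr1d1 and Nr1d2), which repress Arntl through ROR elements, and an output branch runs through the bZIP activator DBP, which binds D-boxes. In macrophages and microglia clock proteins are known to regulate inflammatory genes.

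Promoter sequences that match such motifs are shown here as matches of letters alone, and binding or function at them was not tested. They come from RefSeq promoter windows (assembly GRCm38.p6) that run from 250 bases before to 50 bases after a transcript start. Windows were held for 9 of the 10 genes, all but Per2, and 13 windows in all, so Per2 was not searched. Each window was searched on both strands for the E-box CACGTG, the related E'-box CACGTT, the D-box as TTATGTAA or TTACGTAA, and the ROR element as TAGGTCA or TGGGTCA. No motif overlaps another in the stretches printed, the capitals mark the match, and each stretch is written 5' to 3' on the gene's own strand, where an E'-box on the opposite strand reads AACGTG.

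The Cry1 promoter holds an E-box (position -60 from the start) and an E'-box (position -79), and is shown upstream of the gene at chr10:85185055-85185304, minus strand.
Cry1: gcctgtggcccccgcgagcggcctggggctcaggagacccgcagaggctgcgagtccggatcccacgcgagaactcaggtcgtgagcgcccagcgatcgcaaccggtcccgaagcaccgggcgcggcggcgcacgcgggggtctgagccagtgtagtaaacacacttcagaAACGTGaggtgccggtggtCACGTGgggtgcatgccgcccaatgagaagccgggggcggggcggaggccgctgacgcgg
The Per3 promoter holds 2 copies of the D-box TTATGTAA (positions -205 and -158) and is shown at chr4:151044708-151044915, minus strand.
Per3: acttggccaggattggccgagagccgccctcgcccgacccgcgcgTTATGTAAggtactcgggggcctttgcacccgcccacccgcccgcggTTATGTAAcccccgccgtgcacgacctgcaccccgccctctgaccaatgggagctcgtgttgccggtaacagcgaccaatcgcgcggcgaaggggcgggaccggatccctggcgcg

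The other matches are shown as single sites of 30 bases, for comparison of the bases around them. They are an E-box of Per1 (position -166, chr11:69098771-69098800, plus strand), an E'-box of Cry2 (position -166, chr2:92434218-92434247, minus strand), an E'-box of Nr1d1 (position -28, chr11:98775388-98775417, minus strand) and an ROR element of Arntl (position 31, downstream of the start, chr7:113207529-113207558, plus strand).
Per1: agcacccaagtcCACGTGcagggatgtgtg
Cry2: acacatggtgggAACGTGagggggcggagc
Nr1d1: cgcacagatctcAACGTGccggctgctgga
Arntl: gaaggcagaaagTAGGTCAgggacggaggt
Among all 32851 RefSeq windows of the same length, 7.15% held an E-box, 4.68% an E'-box, 1.06% a D-box and 6.45% an ROR element of these spellings. An E-box was found for 2 members (Cry1 and Per1), an E'-box for 3 (Cry1, Cry2 and Nr1d1), a D-box for Per3 and an ROR element for Arntl. Counted by window, as the shares of all windows are, these were 2, 3, 1 and 1 of the 13 windows. The windows of Clock, Nr1d2 and Dbp held none of these letters.

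After LPS, 9 of the 10 clock genes fell and none rose. Dbp fell most (2.94-fold), followed by Per2 (2.41-fold) and Per3 (2.20-fold), while Nr1d2, Nr1d1, Cry1, Cry2, Clock and Per1 fell 1.29-fold to 1.96-fold, and Arntl was the gene that did not pass the test. The test was that of limma over all 22509 genes, with a Benjamini-Hochberg adjusted p under 0.05 counted as a change. LPS changed much of the transcriptome: 49.3% of all genes passed, 27.8% as higher and 21.5% as lower. The 9 of 10 falling thus compare with a background of 21.5%, but the members were chosen with earlier results of these data known. Every LPS array lay below every saline array for the same 9 genes, against 44.7% of all genes whose groups did not overlap in either direction. The median change of the 10 genes was -0.927 on the log2 scale, and that of all genes was 0.0222.

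Values below are log2 levels of processed signal relative to the 75th percentile of the same array, so that a value of 0 is a signal at that percentile. They compare arrays within a gene and not one gene with another, since probes differ in how strongly they bind. A lower level in a sorted fraction can come from fewer cells that express a gene or from less RNA per cell, and these cannot be told apart here. The choice of scaling moved the median change of all genes from 0.02 to 0.24 (each array's median subtracted) or -0.13 (percentile over probes well above background on every array). The share of changed genes that were higher moved with it, from 56.4% to 72.8% or 40.1%. The direction of 9 clock genes was the same under every scaling, quantile normalization included, and that of Arntl turned from -0.12 to 0.09 with the median subtracted.

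**Figure D1:**
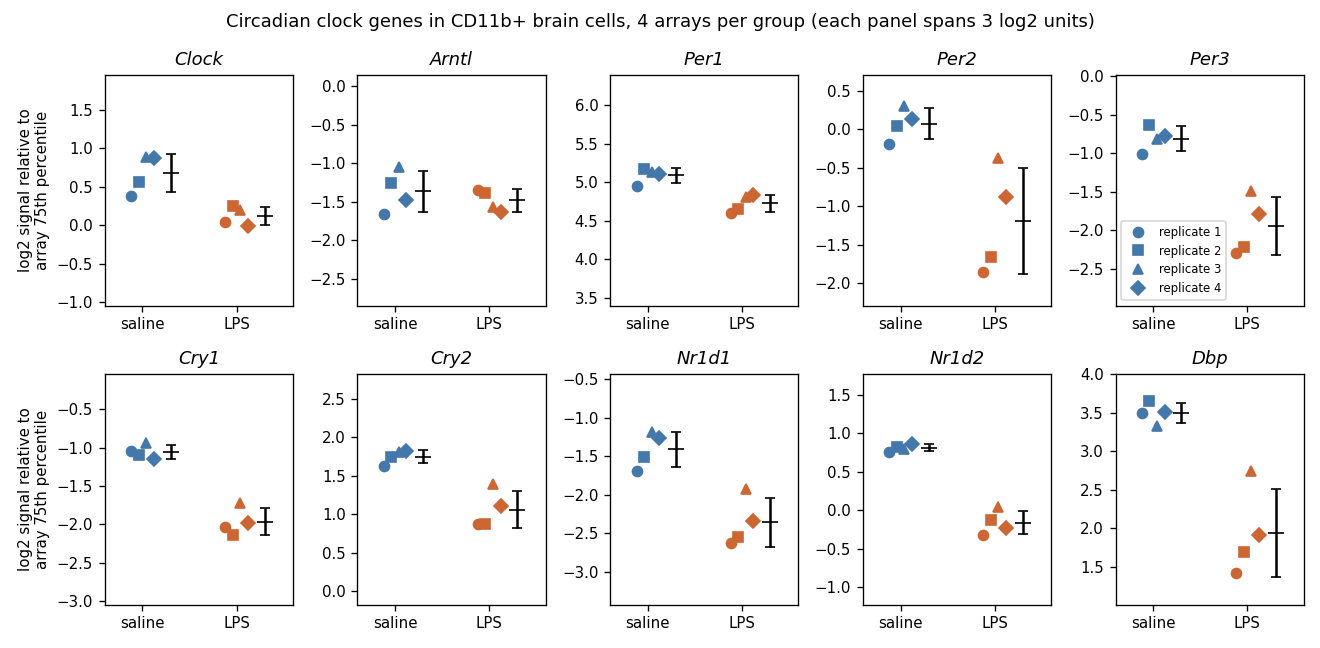
Log2 processed signal relative to the array's 75th percentile (vertical axis) for the 10 clock genes on 4 saline arrays (blue) and 4 LPS arrays (orange), with a symbol shape per replicate name and the mean ± SD beside each group. Every panel spans the same number of log2 units; the groups overlap in Arntl and are apart in the other 9 genes, with Dbp falling from a mean of 3.50 to 1.94.

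Of the activators, Clock encodes the bHLH-PAS subunit that partners BMAL1. Clock had log2 levels of 0.38, 0.56, 0.89 and 0.87 on saline replicates 1 to 4 and of 0.04, 0.24, 0.19 and -0.02 on LPS replicates 1 to 4. The lowest saline array was thus still above the highest LPS array, by a narrow margin. Clock fell by 0.56 ± 0.13 (SE, n = 4 per group) on the log2 scale, a 1.47-fold decrease (95% interval -0.86 to -0.26; limma adjusted p = 0.00902). That call was lost when each array's median was subtracted (-0.34, adjusted p = 0.0731) and when array brightness entered as a covariate (-0.37, adjusted p = 0.0904).

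Arntl encodes BMAL1, the partner that binds DNA with CLOCK. Arntl had log2 levels of -1.66, -1.26, -1.05 and -1.48 on the saline arrays and of -1.34, -1.38, -1.57 and -1.64 on the LPS arrays. The groups overlapped, saline replicate 1 being the lowest of all 8. The difference was -0.12 ± 0.14 (SE, n = 4 per group; 95% interval -0.45 to 0.20; limma adjusted p = 0.489), an interval that still holds a decrease of the size of Per1's. Arntl was thus the member without a call, but a difference between its change and that of Clock was not tested.

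The period genes encode the repressors whose build-up times the daily loop. Per1, which also responds acutely to cAMP and glucocorticoid signals, had log2 levels of 4.95, 5.16, 5.13 and 5.10 after saline and of 4.60, 4.65, 4.80 and 4.83 after LPS. Its groups were apart and tight around their means. Per1 fell by 0.36 ± 0.09 (SE, n = 4 per group), or 1.29-fold (95% interval -0.56 to -0.17; limma adjusted p = 0.00946). The decrease of Per1 was -0.15 (adjusted p = 0.362) with each array's median subtracted, -0.27 (adjusted p = 0.062) with array brightness as a covariate, -0.23 (adjusted p = 0.129) over the mean of its probes and -0.69 after quantile normalization.

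Per2, a period protein that binds cryptochromes and nuclear receptors, had log2 levels of -0.18, 0.05, 0.30 and 0.14 on the saline arrays. After LPS the levels were -1.85, -1.66, -0.37 and -0.88, so that replicates 1 and 2 lay far below and replicate 3 came close to the saline range without entering it. In processed signal, saline arrays read 148, 175, 249 and 198 units and LPS arrays 42.7, 50.1, 139 and 87.5 units. Per2 fell by 1.27 ± 0.31 (SE, n = 4 per group) on the log2 scale, or 2.41-fold, with a wide 95% interval of -1.99 to -0.55 (limma adjusted p = 0.0115). With array brightness as a covariate the decrease was -0.62 (adjusted p = 0.115), and normexp background correction with its offset of 50 gave -0.83 (adjusted p = 0.00426). The spread of Per2 within groups, an SD of 0.508 on the log2 scale, exceeded that of 91.4% of all genes tested.

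Per3, the period gene with the 2 D-boxes printed above, had log2 levels of -1.02, -0.63, -0.81 and -0.77 after saline and of -2.30, -2.21, -1.48 and -1.79 after LPS. All LPS arrays lay below all saline arrays, with replicate 3 again the highest of them. Per3 fell by 1.14 ± 0.19 (SE, n = 4 per group), or 2.20-fold (95% interval -1.56 to -0.71; limma adjusted p = 0.00209). With the normexp offset the decrease was -0.58 (adjusted p = 0.000432), the cause of which was not tested.

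The cryptochromes complete the repressor complex and bind CLOCK and BMAL1 directly. Cry1 had log2 levels of -1.04, -1.10, -0.94 and -1.15 after saline and of -2.03, -2.13, -1.72 and -1.98 after LPS. Both groups were narrow and lay well apart. Cry1 fell by 0.91 ± 0.10 (SE, n = 4 per group), or 1.88-fold (95% interval -1.14 to -0.67; limma adjusted p = 0.000712), and by less with the normexp offset (-0.46, adjusted p = 0.000179).

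Cry2, the paralog of Cry1, had log2 levels of 1.63, 1.74, 1.81 and 1.82 after saline and of 0.87, 0.88, 1.39 and 1.11 after LPS. Its groups were apart, and LPS replicate 3 was nearest to the saline arrays. Cry2 fell by 0.69 ± 0.13 (SE, n = 4 per group), or 1.61-fold (95% interval -0.98 to -0.40; limma adjusted p = 0.00325). With array brightness as a covariate its decrease was -0.45 (adjusted p = 0.0188).

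The receptors REV-ERBα and REV-ERBβ bind haem and repress Arntl and many inflammatory genes of macrophages. Nr1d1 had log2 levels of -1.69, -1.51, -1.18 and -1.26 after saline and of -2.63, -2.55, -1.92 and -2.34 after LPS. The gap between the groups was small beside their spread, as saline replicate 1 stood near LPS replicate 3. Nr1d1 fell by 0.95 ± 0.18 (SE, n = 4 per group), or 1.93-fold (95% interval -1.35 to -0.54; limma adjusted p = 0.00362). Its decrease was -0.42 (adjusted p = 0.00112) with the normexp offset and -0.54 (adjusted p = 0.00853) with array brightness as a covariate.

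Nr1d2 showed even values within each group. Its log2 levels were 0.75, 0.82, 0.80 and 0.86 after saline and -0.32, -0.13, 0.04 and -0.23 after LPS, with a wide gap between the groups. Nr1d2 fell by 0.97 ± 0.09 (SE, n = 4 per group), or 1.96-fold (95% interval -1.18 to -0.77), with the smallest adjusted p of the 10 genes (limma, 0.000359). Its within-group SD of 0.112 exceeded that of 21.2% of genes.

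Dbp encodes a PAR bZIP activator driven by CLOCK and BMAL1, and is a common readout of clock output. Dbp had log2 levels of 3.50, 3.65, 3.33 and 3.51 after saline and of 1.42, 1.70, 2.74 and 1.91 after LPS. In processed signal the saline arrays read 1904, 2123, 2035 and 2040 units, and the LPS arrays 412, 512, 1197 and 606 units. The saline arrays were alike, while LPS replicate 3 kept more signal than the other LPS arrays. Dbp fell by 1.56 ± 0.26 (SE, n = 4 per group), or 2.94-fold (95% interval -2.15 to -0.97; limma adjusted p = 0.00221). Without LPS replicate 3 the decrease was -1.82, and with array brightness as a covariate it was -1.18 (adjusted p = 0.0257).

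Nr1d1 was measured by 1 probe and the other 9 genes by several, which lie at different places in the gene. Positions of the representing probes, on the plus or minus strand of build mm9 per the file headers, are chr5:76639992-76640051 (minus) for Clock, chr7:120456978-120457037 (plus) for Arntl and chr11:68923364-68923423 (plus) for Per1. Those of Per2, Per3 and Cry1 are chr1:93312595-93312654, chr4:150385608-150385667 and chr10:84647094-84647153, all minus. Those of Cry2, Nr1d1 and Nr1d2 are chr2:92243807-92243866, chr11:98630526-98631028 and chr14:19036568-19036627, all minus, and that of Dbp is chr7:52965265-52965324 (plus). The Nr1d1 probe covers a longer span than its own length, as a probe across an exon junction does. The exon or UTR in which each probe lies was not analysed here.

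Taken one by one, 23 of the 25 probes had a lower mean after LPS, and 18 passed the test as lower and 0 as higher. Of all 35494 probes 47.5% passed in either direction. The shares of all probes that passed as lower or had a lower mean were not counted. At the level of genes, 21.5% of all passed as lower. The 18 include the dim probes of Per3, Per2 and Arntl described below, which reached the filter mainly through their saline arrays. All 3 probes of Nr1d2 (-0.97, -1.09 and -0.94), both of Dbp (-1.56 and -1.48) and 2 of Per3 (-1.14 and -1.44) passed with every array well above background. The remaining probe of Per3 (-1.59) and the second of Per2 (-0.66) passed too, but were well above background on only 2 of the 4 LPS arrays, so that the size of these differences is uncertain. The Arntl probes gave no common direction. Its representing probe and 2 others, all well above background on all 8 arrays, differed by -0.12, 0.25 and 0.14 (limma adjusted p = 0.494, 0.0886 and 0.335). The last Arntl probe, from an Ensembl transcript and well above background on 4 saline arrays but 1 LPS array, differed by -0.79 ± 0.25 (SE, n = 4 per group; limma adjusted p = 0.0291), at signals of 5.21 to 10.4 units after saline and 2.34 to 5.58 units after LPS. With 3 of 4 LPS arrays not well above background, the size of that last difference is uncertain. The second probe of Per1 was dim too, at 6.80 to 13.4 units over the 8 arrays, and differed by -0.11 (adjusted p = 0.631). Of the other Clock probes tested, 1 passed at a smaller size (-0.24, limma adjusted p = 0.0216) and 1 did not (-0.45, adjusted p = 0.0944). Likewise 1 further Cry2 probe passed (-0.70, adjusted p = 0.00472) and 1 did not (-0.47, adjusted p = 0.0589). The second Cry1 probe, well above background on 2 LPS arrays, differed by -0.46 (adjusted p = 0.235).

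**Figure D2:**
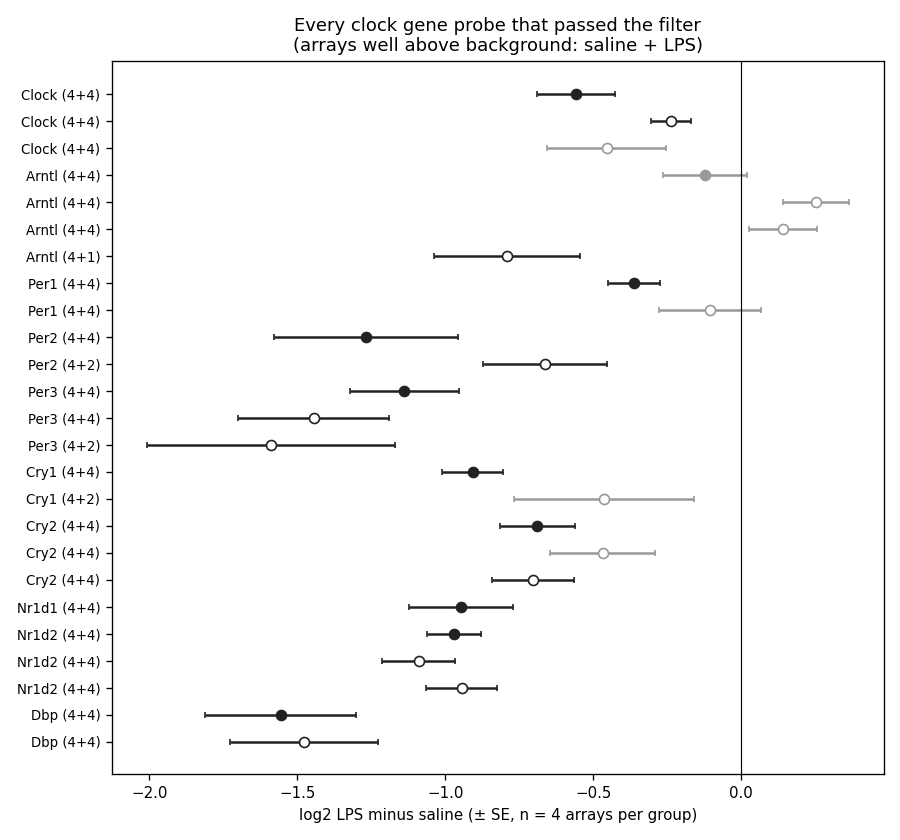
Log2 change (LPS minus saline, horizontal axis) with its standard error for each of the 25 clock gene probes that passed the filter, n = 4 arrays per group; filled circles represent the gene in the gene-level test, black marks a limma adjusted p under 0.05 and grey one above it, and the numbers in brackets count arrays well above background after saline and LPS. All but 2 probes, both of Arntl, lie left of 0.

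The LPS arrays differed among themselves in a like manner across most of the clock genes. LPS replicate 3 was the highest LPS array for 7 of the 10 genes, all but Clock, Arntl and Per1. Nearness of LPS replicate 3 to saline was not confined to genes that fell. It was the lowest LPS array for every rising gene named from the further clock lists below. Without LPS replicate 3, 58.9% of all genes passed, against 49.3% with all arrays kept. Leaving out any other array gave 38.8% to 47.4%. LPS replicate 3 also had the brightest signal of its group, with a median processed signal of 17.3 units against 11.7, 13.1 and 13.8 units on LPS replicates 1, 2 and 4. For 5 genes (Per2, Per3, Cry2, Nr1d1 and Dbp) the LPS arrays ranked exactly as their median signal, while the saline arrays did so for 0 of 10. How often LPS replicate 3 was highest, or arrays ranked as their median signal, was not counted over all genes. The saline arrays were brighter, at 15.9, 15.5, 21.5 and 18.2 units, and 61.9% to 66.0% of probes were well above background on them against 58.6% to 63.2% after LPS. With the median signal as a covariate 6 of the 10 genes still passed (Per3, Cry1, Cry2, Nr1d1, Nr1d2 and Dbp), all 6 lower. Of all genes 33.2% passed in that fit, 14.9% as lower.

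The calls of the members were the same with slide row or slide column in the fit. Each slide row held 2 arrays of each group and each slide column 1 of each. All 10 genes were lower after LPS in both rows, and 9 were lower in all 4 columns, with Arntl lower in 3 columns. The same was not counted over all genes. Column 3 held LPS replicate 3 and saline replicate 3, the brightest array of each group (17.3 and 21.5 units). The decreases of Per2 and Dbp were smallest in that column (-0.67 and -0.59), while those of Clock, Per1 and Arntl were not. What is particular to LPS replicate 3 and what to its slide column cannot be told apart here. With row or column as a block, 9 genes passed in either fit, all of them lower. Of all genes 19.2% passed as lower with row and 27.2% with column as a block. Leaving out any 1 of the 8 arrays also left 9 genes passing as lower each time, against 16.4% to 26.4% of all genes. The decrease of Per2 then lay between -1.54 and -1.05 and that of Dbp between -1.82 and -1.38.

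**Figure D3:**
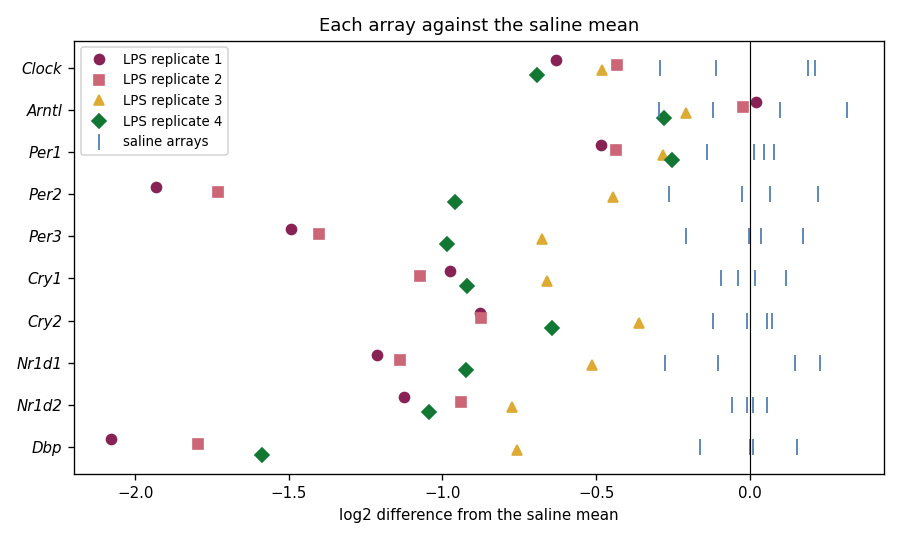
Log2 difference of each array from the saline mean of the same gene (horizontal axis) for the 10 clock genes; coloured symbols are the 4 LPS arrays and blue ticks the 4 saline arrays. LPS replicate 3 (yellow triangles) is the LPS array nearest to saline in Per2 (-0.44), Per3 (-0.68), Cry1 (-0.66), Cry2 (-0.36), Nr1d1 (-0.51), Nr1d2 (-0.77) and Dbp (-0.76).

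Markers of other cells moved between the groups as well, and clock genes are expressed in nearly all cell types. The summed linear level of 10 microglial markers, relative to the 75th percentile, ranged over 1780 to 2140 after saline and 1750 to 1940 after LPS, with 6 of the 10 falling and 0 rising. Most markers of brain cells outside the myeloid lineage fell too, those of neurons excepted. Over all genes 21.5% fell and 27.8% rose. Of 10 astrocyte markers 9 fell (sum 28.9 to 36.3 after saline, 16.2 to 22 after LPS), as did 9 of 10 of pericytes and fibroblasts (52.6 to 78.9 and 20.1 to 36.6), 8 of 10 of endothelium (16.9 to 23.5 and 12.2 to 15) and 6 of 10 of the oligodendrocyte lineage (14 to 15.1 and 11.8 to 13.1). Of 8 neuronal markers measured 2 fell and 1 rose (12.6 to 17.5 and 8.63 to 14.8), with Slc17a7 above background on no array. Of the border macrophage list 5 of 10 fell and 1 rose (483 to 607 and 311 to 431), and of 6 erythroid markers measured 5 fell (18 to 30.8 and 8.98 to 11.7), with Klf1 and Rhag above background on no array.

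Most markers of monocytes went the other way. Of 10 monocyte markers 8 rose and 0 fell (summed level 242 to 277 after saline, 354 to 500 after LPS), against 27.8% of all genes that rose. Of 10 neutrophil markers 3 rose (S100a8, S100a9 and Cxcr2) and 0 fell (70.3 to 165 and 169 to 299), a share of rising markers near that of all genes. Of 7 T and NK cell markers measured 3 rose and 1 fell (2.15 to 3.04 and 5.05 to 6.21), with Ncr1 above background on no array. The part of these shifts in the lower clock transcripts was not tested.

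The genes whose 8 array values were most like those of 3 strongly rhythmic members were sought over all genes tested, by the root mean square difference of log2 values centred on each gene's mean. Nearest to Per2 were Fgfr1 (0.122), Tram1l1 (0.127) and the transcript AK038374 (0.132). Nearest to Nr1d1 were Nlgn2 (0.0684), Gm2511 (0.0685) and Dock9 (0.0746), and nearest to Dbp were Igf2bp2 (0.122), H2-Aa (0.126) and Egfl7 (0.131). None of these 9 is one of the 64 further clock genes described next. Only 62 of those are among the 22509 genes tested, so their absence here says nothing about whether clock genes vary together.

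Around the 10 members, 64 further genes were set out in 6 lists. They are called further clock genes here, although 10 of them are glucocorticoid and CREB targets that only share inputs with Per1. Of the 64, 62 were measured (all but Npas2 and Rorb, which did not pass the filter). Of the 62, 15 rose (24.2%, against 27.8% of all genes) and 17 fell (27.4%, against 21.5%), and their median change was -0.0436. The number that fell depended on scaling, and so did its distance from the share of all genes that fell. It was 9 with each array's median subtracted (14.5%, against 11.6% of all genes) and 28 with the percentile over probes above background everywhere (45.2%, against 32.2%). After quantile normalization 30 of the 62 fell (48.4%, against 24.9%).

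The lists, like the members, were chosen with earlier results of these data known. The list nearest to the members in direction was that of ROR receptors and bZIP factors. In it 3 of 5 measured genes fell (60%, against 21.5% of all genes) and 1 rose (20%, against 27.8%; median -1.1). Tef, like DBP a PAR bZIP activator of D-boxes, had log2 levels of 4.48, 4.63, 4.46 and 4.51 after saline and of 3.05, 2.96, 3.74 and 3.18 after LPS. The groups lay far apart, and Tef fell by 1.29 ± 0.16 (SE, n = 4 per group; limma adjusted p = 0.000983). Hlf, the remaining PAR bZIP factor, had log2 levels of -0.68, -1.12, -0.45 and -0.72 after saline and of -2.96, -2.65, -1.17 and -2.03 after LPS. Its groups were barely apart, since LPS replicate 3 stood just under saline replicate 2, and it fell by 1.46 ± 0.36 (SE, n = 4 per group; limma adjusted p = 0.0117), a call lost with array brightness as a covariate (-0.67, adjusted p = 0.103).

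Nfil3, the bZIP repressor that competes with DBP, TEF and HLF for D-boxes, went the opposite way. Nfil3 had log2 levels of 4.15, 3.82, 3.65 and 3.91 after saline and of 4.78, 4.56, 4.26 and 4.71 after LPS, without overlap. It rose by 0.70 ± 0.15 (SE, n = 4 per group; limma adjusted p = 0.00566). Of the 4 D-box factors, the 3 activators thus fell and the repressor rose. Rora, which activates Arntl through the element that REV-ERBs occupy, had log2 levels of 1.16, 1.05, 1.24 and 1.43 after saline and of -0.11, -0.23, 0.67 and 0.15 after LPS. It fell by 1.10 ± 0.19 (SE, n = 4 per group; limma adjusted p = 0.00283), with the groups apart.

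**Figure D4:**
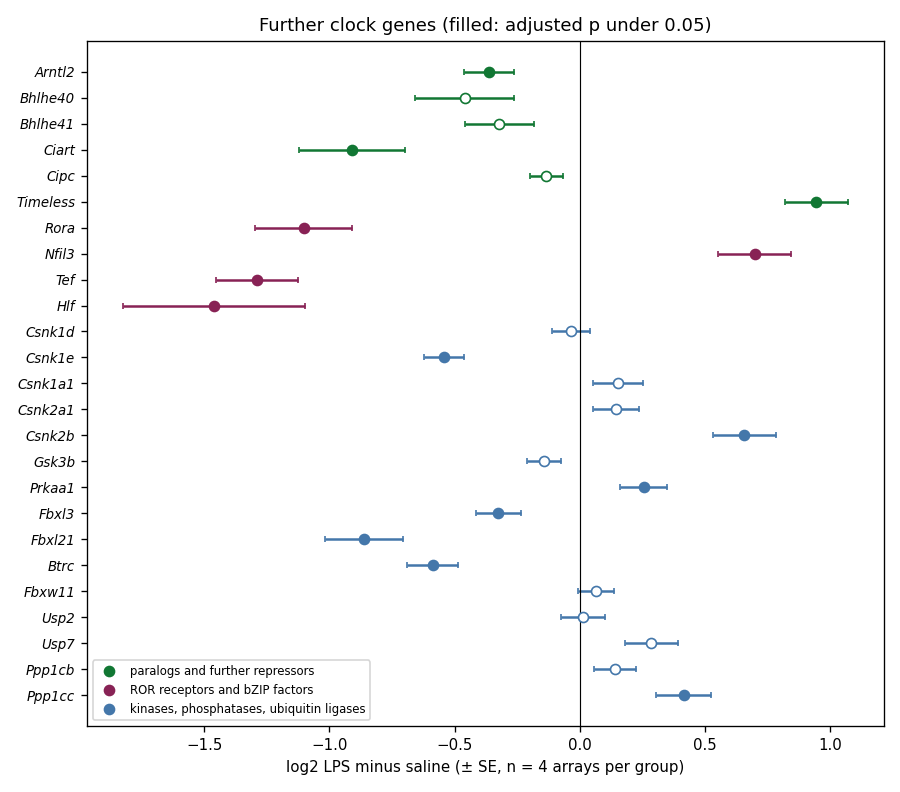
Log2 change (LPS minus saline, horizontal axis) with its standard error, n = 4 arrays per group, for 25 genes of 3 lists: paralogs and further repressors (green), ROR receptors and bZIP factors (purple) and enzymes acting on PER and CRY (blue); filled circles have a limma adjusted p under 0.05. Tef, Hlf and Rora lie at -1.29, -1.46 and -1.10 and Nfil3 at 0.70, while the enzymes lie on both sides of 0.

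Among paralogs and further repressors of the core loop, 2 of 6 measured genes fell (33.3%, against 21.5% of all genes) and 1 rose (16.7%, against 27.8%; median -0.342). Ciart, a repressor of CLOCK and BMAL1 that cycles with the Per genes, fell by 0.91 ± 0.21 (SE; limma adjusted p = 0.00887), and its call was lost with array brightness as a covariate (-0.46, adjusted p = 0.0701). Arntl2, the paralog of Arntl, fell by 0.36 ± 0.10 (SE; adjusted p = 0.0173), a call lost in 4 of 22 alternatives, among them each array's median subtracted (-0.15) and the normexp offset (-0.10). Timeless, which in mammals acts mainly at replication forks, rose by 0.95 ± 0.12 (SE; adjusted p = 0.00106). The repressors Bhlhe40 (-0.46, adjusted p = 0.0863), Bhlhe41 (-0.32, adjusted p = 0.0831) and Cipc (-0.13, adjusted p = 0.122) had lower means that did not pass.

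Of the enzymes that set the stability of PER and CRY proteins, 3 of 15 rose (20%, against 27.8% of all genes), 4 fell (26.7%, against 21.5%) and 8 did not pass (median 0.0657). Shares this near the background say nothing particular of the list. Csnk1e, the kinase CK1ε that marks PER proteins for degradation, fell by 0.54 ± 0.08 (SE; limma adjusted p = 0.0014), although not past the threshold with each array's median subtracted (-0.33, adjusted p = 0.0824). Btrc, the F-box protein that recognises phosphorylated PER, fell by 0.59 ± 0.10 (SE; adjusted p = 0.00271). Fbxl21, an F-box protein for cryptochromes, was well above background on 4 saline arrays and on 0 LPS arrays. It passed the filter through its saline arrays alone. The limma adjusted p of its fitted difference (0.00314) rests on LPS values not well above background, and is no independent support for a decrease. With dim LPS signals raised to a floor, its level was 1.41-fold lower after LPS. This figure sets the saline mean against, on each LPS array, the higher of the probe's own signal and the lowest signal well above background. That lowest signal is taken over all probes of the array, so the figure is not a strict bound for this probe. With the normexp offset the fitted difference of Fbxl21 was 0.01.

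Of the enzymes that rose, Csnk2b, the regulatory subunit of casein kinase 2, gained 0.66 ± 0.13 (SE; limma adjusted p = 0.00391). Ppp1cc, a catalytic subunit of protein phosphatase 1, gained 0.41 ± 0.11 (SE; adjusted p = 0.0155), which did not pass after quantile normalization (0.12, adjusted p = 0.0827). Prkaa1, a catalytic subunit of AMP-activated kinase, gained 0.26 ± 0.09 (SE; adjusted p = 0.0498) with overlapping groups, and its call was lost in 13 of 22 alternatives.

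In the list of corepressors, coactivators and chromatin enzymes 5 of 13 genes rose (38.5%, against 27.8% of all genes) and 2 fell (15.4%, against 21.5%; median 0.111). Nono, an RNA-binding partner of PER proteins, rose by 0.50 ± 0.11 (SE; limma adjusted p = 0.00767), Tbl1xr1, a subunit of the NCoR corepressor complex, by 0.41 ± 0.09 (SE; adjusted p = 0.00775) and the deacetylase gene Sirt6 by 0.36 ± 0.08 (SE; adjusted p = 0.00659). Sfpq, which binds NONO, fell by 0.53 ± 0.11 (SE; adjusted p = 0.00485) and the acetyltransferase gene Crebbp by 0.36 ± 0.07 (SE; adjusted p = 0.00415). Neither decrease passed with each array's median subtracted (-0.32, adjusted p = 0.0813, and -0.15, adjusted p = 0.377), and the Sirt6 increase did not over the mean of its probes (0.19, adjusted p = 0.148).

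Of 13 genes known as clock outputs in many tissues 4 rose and 4 fell (30.8% each, against 27.8% and 21.5% of all genes; median 0.0465), shares near the background. Nampt, the rate-limiting enzyme of NAD salvage, which CLOCK and BMAL1 drive in other tissues, had log2 levels of 1.33, 1.33, 1.22 and 1.37 after saline and of 2.24, 2.26, 2.01 and 2.51 after LPS. Its groups lay far apart, in the direction opposite to Dbp, and it rose by 0.94 ± 0.11 (SE, n = 4 per group; limma adjusted p = 0.000729). The cold-inducible RNA-binding protein gene Rbm3 rose by 0.57 ± 0.12 (SE; adjusted p = 0.00523) and the mitotic kinase gene Wee1 by 0.43 ± 0.08 (SE; adjusted p = 0.00369).

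Of the outputs that fell, Klf15, a Krüppel-like factor, fell by 0.99 ± 0.24 (SE; limma adjusted p = 0.00997), a call lost with array brightness as a covariate (-0.50, adjusted p = 0.0909). Noct, a rhythmic phosphatase known as nocturnin, had a change of -0.80 ± 0.15 (SE; adjusted p = 0.0036), but its probes disagreed, and their mean differed by 0.10 (adjusted p = 0.314). Cirbp, a second cold-inducible RNA-binding protein gene, had a change of -0.43 ± 0.10 (SE; adjusted p = 0.00746), which did not pass with each array's median subtracted (-0.22, adjusted p = 0.262).

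The last list held glucocorticoid and CREB target genes, which share inputs with Per1. Of its 10 genes 1 rose (10%) and 2 fell (20%), neither share above that of all genes (median -0.2). Sgk1, a kinase gene induced by corticosteroids, fell by 0.74 ± 0.13 (SE; limma adjusted p = 0.00261). Crem, a CREB family gene, fell by 0.33 ± 0.08 (SE; adjusted p = 0.0103), a call lost with each array's median subtracted (-0.11) and over the mean of its probes (-0.22). Sik1, a kinase gene induced by CREB, rose by 0.47 ± 0.12 (SE; adjusted p = 0.0112), a call lost with array brightness as a covariate (0.33, adjusted p = 0.103).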

How the data were processed

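Gene expression was measured on 1-colour Agilent arrays in 8 pools of CD11b+ cells, 4 after saline and 4 after LPS. From each pool, 50 ng of total RNA was labelled with Cy3, per the labels. The authors' deposited scanner files hold intensity values made with Agilent Feature Extraction 12.0.3.1, per the submitters' processing notes. The log2 values of the authors' deposited table follow the scanner values after each array's 75th percentile is subtracted (correlations of 0.999 to 1), and served as an alternative.

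Control spots and outlier flags were left out, spots of a probe were averaged, 6 probes without a usable spot were dropped, and no spot was saturated. Probes were named through RefSeq accessions (35402 of 56599), symbols (9123) or synonyms (25) of a table of assembly GRCm38.p6, and 12049 kept the file's name. The values tested were log2 processed signals from which the array's 75th percentile was subtracted. A probe was kept where 4 or more of the 8 arrays read it well above background (35494 probes), and the probe with the highest mean signal stood for a gene. LPS was tested against saline in R 4.3.3 with limma 3.58.1 (lmFit, eBayes), and p-values were adjusted by Benjamini-Hochberg over all 22509 genes, with a threshold of 0.05. The fit was tested on simulated data. Figures were drawn with matplotlib 3.10.9.

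Members and lists were chosen with earlier results of these data known. Named were all members, up to 3 rising and 3 falling genes of each list by size of change, and the 3 genes most like Per2, Nr1d1 and Dbp. Alternatives covered scaling, background correction, the dim-probe filter, which probe stood for a gene, array weights, the variance model, rows and columns of the slide, array brightness, the authors' values and each array left out. The labels give no replicate numbers, so the numbers only name arrays in order. The pools are separate groups of 2 mice, and 4 per group limits the precision. Array signals give no counting depth. Of the genes in these lists, 1 clock gene and 1 cell type marker are not reported here.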

Additional observations from a re-analysis of the deposited data

Results flagged for a closer look

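Among the 74 groups of 4 arrays examined (each gene named from the members and lists, in each treatment), 1 held an array far from the others. LPS replicate 3 had a log2 level of Prkaa1 of 0.772, against 1.02 to 1.07 on the other LPS arrays, and the gap made up 0.835 of the group's range. The criterion was Dixon's 95% critical value, which chance passes in about 1 in 20 groups.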

How the results depend on the processing

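The count of clock genes that changed stayed at 9 in all alternatives but 3. It was 7 with each array's median subtracted, 8 over the mean of a gene's probes and 6 with array brightness as a covariate. In each case all were lower, against 11.6%, 22% and 14.9% of all genes that passed as lower. Over all alternatives the limma adjusted p ranged from 0.00355 to 0.0904 for Clock, from 0.00122 to 0.362 for Per1 and from 0.000502 to 0.115 for Per2, and it was at most 0.0257 for Per3, Cry1, Cry2, Nr1d1, Nr1d2 and Dbp. The count of further clock genes, 32, ranged from 25 to 45 over all alternatives and from 28 to 40 as single arrays were left out, and the share of all genes moved too. With array brightness as a covariate it was 25 (40.3%, against 33.2% of all genes), with array weights 45 (72.6%, against 66.5%) and after quantile normalization 41 (66.1%, against 50.1%). The normexp offset turned Fbxl21 to 0.01426, and the mean of its probes turned Noct to 0.0981. Without a filter on dim probes 26.8% of all genes changed, while the members' count stayed at 9. No paired analysis was possible because the labels give no replicate numbers. Blocking on slide column, where each column holds 1 array of each group, gave 9 and 38 (61.3%, against 60.5% of all genes). A low signal over background limits the second probes of Per1, Per2 and Cry1 and the dimmest probes of Per3 and Arntl. The cause of these shifts was not tested.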
